A study of Mus musculus with 9 samples.

Results

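The genes described here encode the proteasome, taken as the probe sets whose annotation gives 1 gene symbol starting with Psma, Psmb, Psmc, Psmd, Psme, Psmf or Psmg and a number. That rule took 48 genes with 85 probe sets, of 12393 genes with a symbol of their own and 22690 probe sets on the array. Among the 48, Psmc3ip and Psme3ip1 match the pattern by name but encode no subunit, which left 46 proteasome genes. Lung RNA of adult FVB/N mice was hybridised to 9 Affymetrix mouse arrays in 3 groups of 3. Wild-type mice (WT) carried no transgene, HE mice carried 1 allele of a human CFTR transgene (SP-C-hCFTR+|-) and HO mice carried 2 (SP-C-hCFTR+|+), and the genotype field gives intact mouse Cftr (mCftr+|+) for all but WT replicate 3, where it holds no genotype. The human cDNA was driven by the promoter of Sftpc, the surfactant protein C gene, so it was directed to a subset of epithelial cells while RNA came from lung tissue. The purpose was to learn what more normal CFTR, the epithelial chloride channel, does to lung mRNA. HO replicate 2 is titled homozygous, with a genotype field of 2 alleles and a description of 1, and was kept as HO. Age beyond adult, sex and whether each sample came from a separate animal are not given in the labels, so each p-value refers to the spread between the samples deposited, part of which may be technical.

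The proteasome is the protease that breaks down proteins tagged with ubiquitin, misfolded CFTR among them. Its barrel-shaped core has outer rings of alpha subunits (Psma) and inner rings of beta subunits (Psmb), of which Psmb5, Psmb6 and Psmb7 cut peptide bonds. Under interferon gamma, and constitutively in many immune cells, newly made cores take up Psmb8, Psmb9 and Psmb10 in their place. This immunoproteasome yields peptides suited to MHC class I presentation.

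The stretches of DNA just before the catalytic genes are shown as a description, and their relation to the array signals was not tested. Each is the 250 bases before the RefSeq start in build GRCm38.p6, read 5′ to 3′ along the gene's own strand, with motif matches in capitals.
Psmb8 (chr17:34197945-34198194, plus strand): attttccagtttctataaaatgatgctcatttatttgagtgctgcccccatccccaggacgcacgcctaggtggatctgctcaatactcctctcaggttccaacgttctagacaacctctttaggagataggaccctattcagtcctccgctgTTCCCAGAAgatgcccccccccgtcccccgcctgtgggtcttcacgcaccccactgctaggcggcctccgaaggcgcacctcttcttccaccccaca
Psmb9 (chr17:34187331-34187580, minus strand): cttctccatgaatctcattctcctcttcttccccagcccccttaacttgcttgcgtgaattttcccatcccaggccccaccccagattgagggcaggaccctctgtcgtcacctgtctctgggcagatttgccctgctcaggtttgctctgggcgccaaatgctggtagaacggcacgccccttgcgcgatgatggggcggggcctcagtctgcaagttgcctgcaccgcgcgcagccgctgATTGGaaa
Psmb10 (chr8:105938393-105938642, minus strand): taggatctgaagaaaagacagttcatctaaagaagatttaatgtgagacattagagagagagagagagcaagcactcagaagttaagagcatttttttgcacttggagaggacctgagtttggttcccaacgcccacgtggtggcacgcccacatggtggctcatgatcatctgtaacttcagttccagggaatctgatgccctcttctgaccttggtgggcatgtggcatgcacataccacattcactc
Psmb5 (chr14:54617996-54618245, minus strand): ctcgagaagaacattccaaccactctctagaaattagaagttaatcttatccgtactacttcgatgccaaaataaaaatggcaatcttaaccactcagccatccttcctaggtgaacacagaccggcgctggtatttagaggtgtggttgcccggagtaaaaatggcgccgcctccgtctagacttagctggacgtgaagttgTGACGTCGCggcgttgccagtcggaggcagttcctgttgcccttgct
Psmb6 (chr11:70525107-70525356, plus strand): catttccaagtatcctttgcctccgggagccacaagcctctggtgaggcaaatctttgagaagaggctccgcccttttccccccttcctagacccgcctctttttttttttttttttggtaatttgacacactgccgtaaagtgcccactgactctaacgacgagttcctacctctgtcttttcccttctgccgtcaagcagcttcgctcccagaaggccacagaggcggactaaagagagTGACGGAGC
The letters searched, on both strands, were GAAA, any 2 bases and GAAA again for an interferon regulatory factor element, TTCNNNGAA for a gamma-activated site (GAS), TGACNNNGC for an antioxidant response element, CCAAT for the NF-Y box and GGGA, any base and TTTCC for a kappaB site. Psmb8 held a GAS match 97 bases before its start, and this motif occurred in 7.02% of 32851 promoters of this length. Psmb9 held a CCAAT match on the opposite strand 8 bases before its start, a motif found in 33.8% of promoters. Psmb5 and Psmb6 each held an antioxidant response element match, 47 and 9 bases before the start, against 10.2% of promoters. No motif searched had a match in the Psmb10 window, no 2 matches overlapped in these windows, and the interferon regulatory factor and kappaB letters (2.98% and 0.356% of promoters) occurred in none of the 5. Among the 38 proteasome genes with a promoter in the table, the antioxidant response element letters occurred in 5 (Psmb5, Psmb6, Psmc6, Psmd12 and Psmd9), which is 13.2%, and the CCAAT letters in 13, which is 34.2%. The interferon regulatory factor letters occurred in 3 (Psmb3, Psmd4 and Psmd9), which is 7.89%. The GAS letters occurred in 2 (Psmb8 and Psmg1), which is 5.26%, and the kappaB letters in 0. Differences of these shares from those of all promoters were not tested. By RefSeq order, Psmb9, Tap1, Psmb8 and Tap2 follow each other on chromosome 17, in the MHC. Psmb9 and Tap1, a subunit of the peptide transporter that feeds MHC class I, run in opposite directions with 225 bases between their starts, so the first 25 bases printed for Psmb9 lie past the start of Tap1.

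Signals are given as log2 of the deposited intensity, and a log2 difference of 1 is a doubling. Of the 85 probe sets, 70 from 47 genes were bright enough to be tested, and 15 were left out as dim. Psma8, the testis-type paralogue of Psma7, was the only gene with no tested probe set. Its log2 signals were 5.60, 7.09 and 6.86 in WT, 6.95, 7.15 and 7.43 in HE, and 7.04, 7.11 and 6.997 in HO, all below the filter at 8.90. The single probe set of Psme2, the partner of Psme1, carries 2 symbols and is not described here. The arrays were alike, with median intensities of 697 to 742 and a mean correlation of 0.966 within and 0.968 between groups. Markers of the labelled tissue were high on all 9, at log2 15.62 to 16.06 for Sftpc, 15.43 to 15.99 for the club cell secretoglobin Scgb1a1, 14.30 to 14.76 for the alveolar type I gene Ager and 12.88 to 13.33 for the leukocyte gene Ptprc.

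No proteasome gene differed detectably between genotypes. In HO against WT, 0 of the 70 member probe sets had an adjusted p under 0.05 with limma, against 0% of the 13576 probe sets tested. At an unadjusted p under 0.05 there was 1 of 70, against 4.49% of all. In HE against WT the counts were 0 adjusted (0% of all) and 2 unadjusted (3.11% of all), and in HO against HE they were 0 (0% of all) and 1 (2.56% of all). For both transgenic groups together against WT, 0 passed after adjustment (0% of all) and 1 before it (4.19% of all), the latter being 3 with the replicate number as a block. The moderated F test over the 3 groups gave 0 adjusted (0% of all) and 1 unadjusted (3.09% of all). The precision was enough to bound many of these genes: the 95% interval lay within 0.5 of 0 on the log2 scale for 48 of 70 members in HO against WT (54.3% of all probe sets), 47 in HE against WT (57.3% of all) and 50 in HO against HE (58.4% of all). The 2 comparisons with WT share the WT arrays.

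Taken at 1 probe set per gene, the one of highest mean, the 45 tested proteasome genes had a median log2 difference of 0.05 in HO against WT, with 31 above 0, where the median of all 8184 genes was 0.00. The HO against WT median was 0.04 with quantile normalization and 0.10 with median centring, which moved the median of all genes to 0.0066 and 0.05. In HE against WT the proteasome median was 0.0027 with 24 genes above 0 and 21 below, and it was -0.01 with quantile normalization and 0.04 with median centring. On the single probe sets, 44 of 70 were above 0 in HO (48.8% of all), or 54 with median centring (61.1% of all), and 43 of 70 in HE (47.8% of all), or 36 with quantile normalization (50.2% of all). Above 0 in HO against HE were 47 of 70 (51.4% of all). By gene, the proteasome median there was 0.066 with 33 of 45 above 0, where the median of all genes was 0.015.

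**Figure D1:**
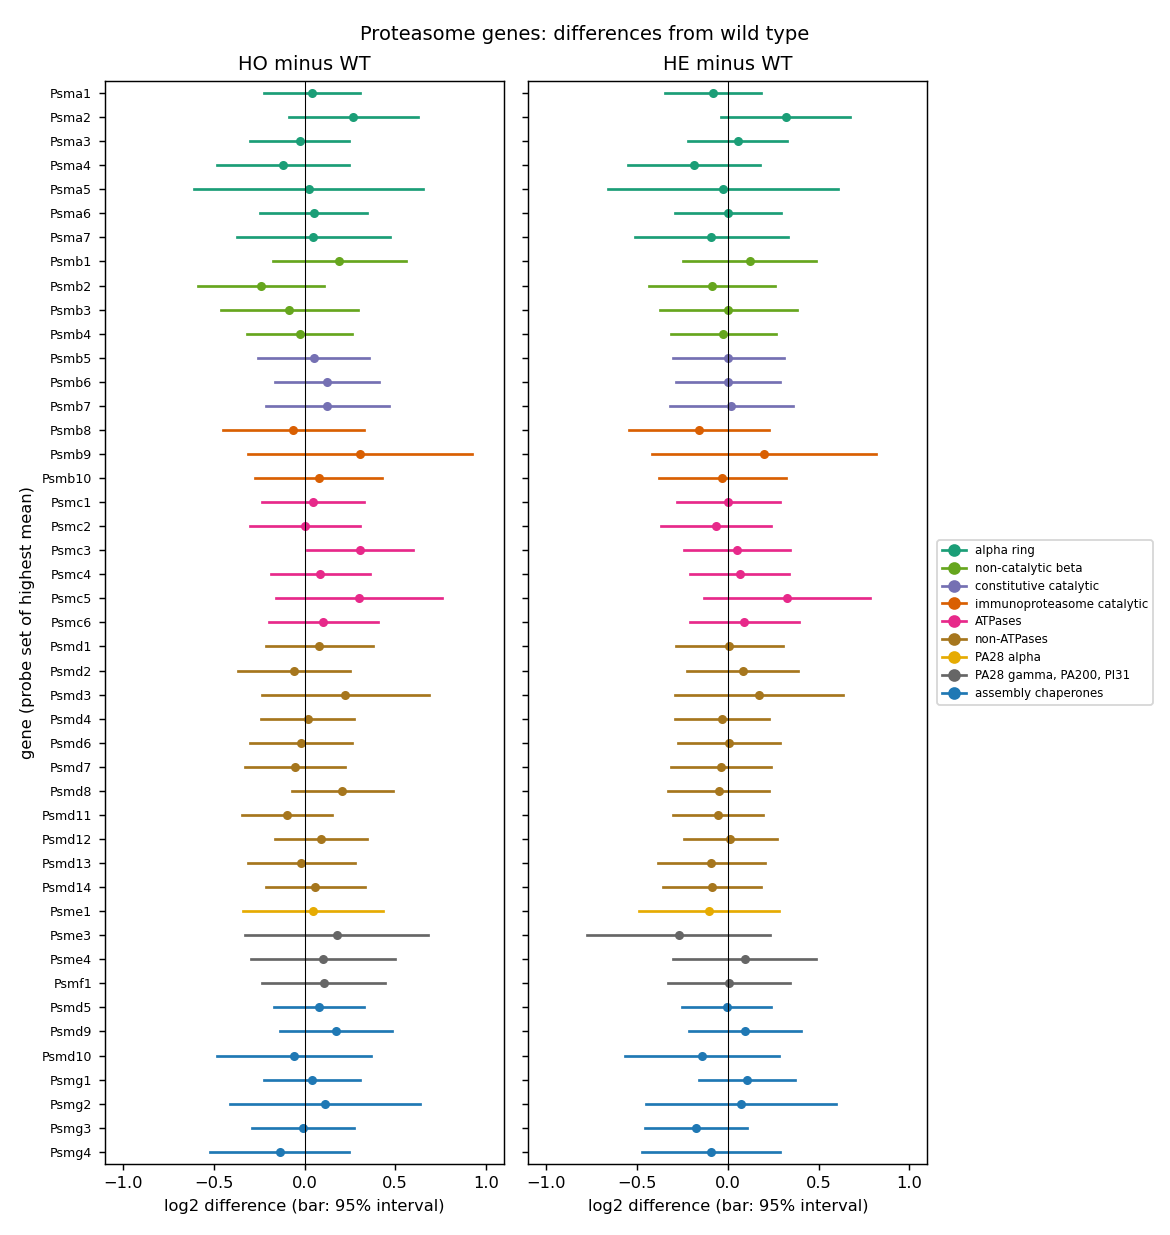
Log2 difference from WT (x axis) of each of the 45 tested proteasome genes (y axis, probe set of highest mean, coloured by role), in HO on the left and HE on the right, with 95% intervals from the limma fit over 9 arrays. In HO the points lie between -0.24 and 0.31, and the interval of Psmc3 alone leaves out 0, at 0.01 to 0.60, before adjustment over all probe sets.

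The constitutive catalytic subunits lay close together in the 3 genotypes. Psmb5, which carries the chymotrypsin-like activity, was at 12.40, 12.12 and 12.12 in WT replicates 1, 2 and 3, 12.31, 12.25 and 12.09 in HE, and 12.38, 12.32 and 12.09 in HO. Psmb6, the caspase-like subunit, was at 12.26, 12.07 and 12.08 in WT, 12.33, 12.05 and 12.02 in HE, and 12.29, 12.29 and 12.20 in HO. The HO arrays of Psmb6 spanned the narrowest range and none was at its low end, yet the groups overlapped. Psmb7, the trypsin-like subunit, was at 13.42, 13.55 and 13.27 in WT, 13.36, 13.32 and 13.63 in HE, and 13.70, 13.65 and 13.28 in HO. Here HO held both the highest array and 1 of the lowest, so the groups overlapped again. The HO minus WT differences were 0.051 ± 0.14 (SE) for Psmb5, 0.13 ± 0.13 for Psmb6 and 0.13 ± 0.15 for Psmb7. In HE minus WT they were 0.0036, 0.0027 and 0.02, with the same standard errors.

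The immunoproteasome subunits spanned more over the 9 arrays. In WT and HE each also had a larger SD than the constitutive subunit it replaces, though Psmb10 barely so in WT. The SDs of Psmb8, Psmb9 and Psmb10 were 0.351, 0.419 and 0.142 in WT and 0.139, 0.587 and 0.289 in HE. Those of Psmb5, Psmb6 and Psmb7 were 0.164, 0.107 and 0.140 in WT and 0.115, 0.169 and 0.166 in HE. In HO only Psmb9 exceeded its counterpart: the SDs were 0.14, 0.21 and 0.10 for Psmb8, Psmb9 and Psmb10. Those of Psmb5, Psmb6 and Psmb7 there were 0.15, 0.06 and 0.23. Psmb8, which replaces Psmb5, was at 12.21, 12.59 and 11.88 in WT, 11.92, 12.19 and 12.09 in HE, and 12.15, 12.31 and 12.03 in HO. The WT arrays held both its highest and its lowest value. Psmb9, which replaces Psmb6, was at 11.68, 12.01 and 11.18 in WT, 11.46, 12.50 and 11.51 in HE, and 12.00, 12.09 and 11.69 in HO. Its highest array was HE replicate 2 and its lowest WT replicate 3, and all 3 groups overlapped. Psmb10, which replaces Psmb7, was at 12.09, 12.16 and 11.89 in WT, 11.98, 12.32 and 11.74 in HE, and 12.16, 12.19 and 12.01 in HO. HE held both extremes of this gene. The differences of HO from WT were -0.06 ± 0.18 (SE) for Psmb8, 0.31 ± 0.28 for Psmb9 and 0.08 ± 0.16 for Psmb10, and those of HE from WT were -0.16 ± 0.18, 0.20 ± 0.28 and -0.03 ± 0.16. The 95% interval of Psmb9 in HO ran from -0.31 to 0.92, so at this number of arrays a 1.24-fold difference could not be told from none. Without WT replicate 3 the Psmb9 difference was 0.08 in HO and -0.02 in HE, and without HE replicate 2 it was -0.14 in HE.

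**Figure D2:**
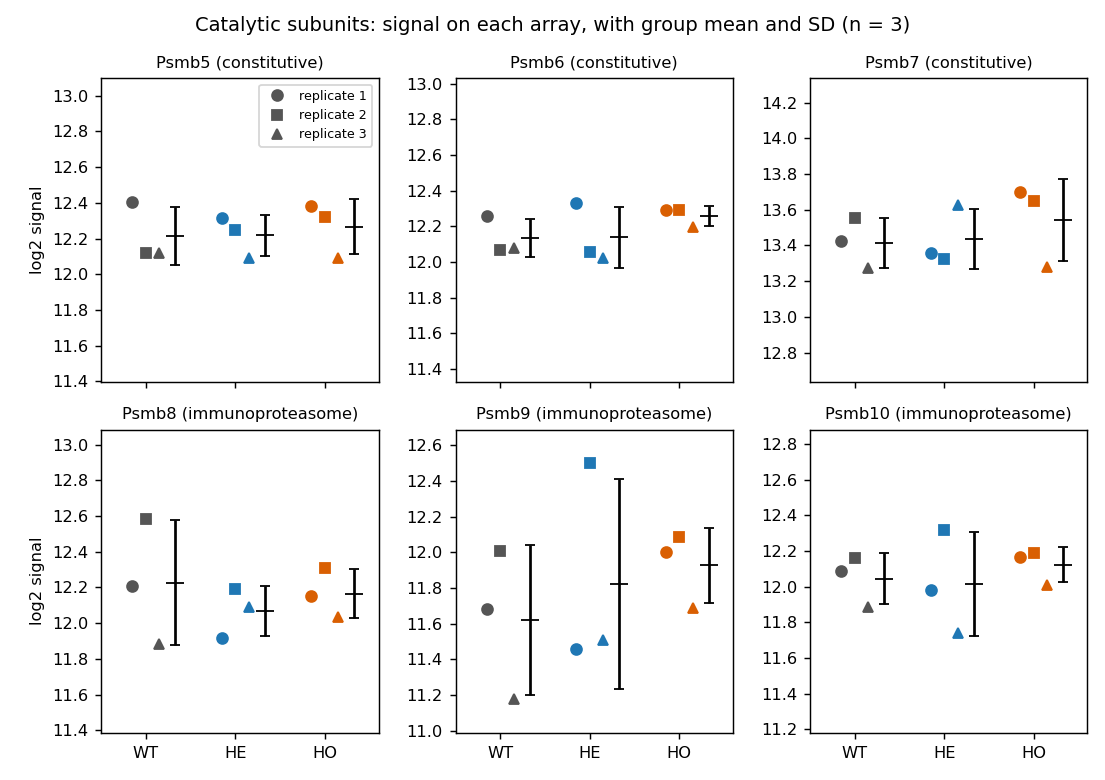
Log2 signal (y axis, the same span in each panel but a different start) of the 3 constitutive catalytic subunits (top) and the 3 immunoproteasome subunits that replace them (bottom) on each array of WT, HE and HO, with marker shapes for replicate numbers and bars for group mean and SD (n = 3). The groups overlap in every panel, and replicate 2 is the highest of its group for Psmb8, Psmb9 and Psmb10 in all 3 genotypes.

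To ask whether the balance between the 2 kinds of core moved with genotype, each immunoproteasome subunit was set against the constitutive subunit it replaces on the same array, relative to the WT mean. The mean of the 3 pairs was -0.08, 0.30 and -0.22 in WT, -0.26, 0.42 and -0.18 in HE, and -0.06, 0.06 and 0.01 in HO. HO differed from WT by 0.0064 and HE by -0.0050, where single arrays of WT and HE differed by over 0.5. The SD between arrays was 0.27 in WT, 0.37 in HE and 0.06 in HO. For Psmb9 minus Psmb6 alone the group means were 0.20 in HE and 0.18 in HO, beside SDs of 0.68 and 0.16. Leaving out 1 array moved the mean of the 3 pairs in HO minus WT between -0.10 and 0.15, the ends being without WT replicate 3 and without WT replicate 2. In HE minus WT it ran from -0.22 without HE replicate 2 to 0.14 without WT replicate 2. A ratio of this kind shows unequal change of 2 probe sets, not which subunit is more abundant.

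The 7 alpha ring genes form the gate of the core, and 5 of them were above 0 in HO against WT and 3 in HE, with medians of 0.04 and -0.03. Psma2, the furthest from 0 in HO, was at 12.83, 12.98 and 12.95 in WT, 12.93, 13.43 and 13.35 in HE, and 13.43, 13.05 and 13.08 in HO. Its HO arrays all lay above its WT arrays, and 1 HE array lay among the WT arrays. Psma5 has probe sets that disagree. The dimmer one was at 11.82, 11.46 and 11.59 in WT, 11.37, 11.31 and 11.18 in HE, and 11.42, 11.37 and 11.85 in HO, so its HE arrays lay below WT by 0.34 ± 0.16 (SE; limma adjusted p = 1.0). The brighter one gave -0.03 in the same comparison. Psma3 and Psma1 were the steadiest of the ring, spanning 0.25 and 0.31 over the 9 arrays.

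Of the 4 beta genes without catalytic activity, 1 was above 0 in HO against WT and 2 in HE, with medians of -0.06 and -0.01. Psmb1 had the lowest p of any member in HO against HE. Its dimmer probe set was at 10.04, 9.64 and 9.69 in WT, 9.94, 9.86 and 10.11 in HE, and 9.55, 9.64 and 9.49 in HO. All HO arrays were below all HE arrays and also below the WT arrays, by -0.41 ± 0.14 from HE (SE; limma adjusted p = 1.0). The brighter Psmb1 probe set gave 0.07. Psmb4 led HE against WT: one probe set was at 10.69, 10.73 and 10.38 in WT, 10.90, 11.02 and 10.86 in HE, and 10.84, 10.81 and 10.66 in HO. The HE arrays lay above the WT arrays by 0.33 ± 0.13 (limma adjusted p = 1.0), and the brighter probe set gave -0.03. Psmb2 was at -0.24 in HO and -0.09 in HE. Psmb3 had 0.28 in both comparisons at its dimmer probe set and -0.09 and 0.0027 at the brighter one.

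The regulatory particle caps the core, and its base is a ring of 6 ATPases that unfold substrates. At the probe set of highest mean, all 6 had positive differences in HO, with a median of 0.09 (4094 of all 8184 genes were above 0). In HE 5 of 6 did, with a median of 0.06 (3771 of 8184). Among dimmer tested probe sets, that of Psmc6 gave -0.08 in HO and -0.26 in HE, while those of Psmc2 and Psmc4 were above 0 in both. Psmc3 had the lowest p of the members in HO against WT: it was at 11.88, 11.79 and 11.76 in WT, 11.99, 11.80 and 11.80 in HE, and 12.01, 12.34 and 12.00 in HO. Its HO arrays lay above every WT and HE array, with HO replicate 2 well above the others. HO minus WT was 0.31 ± 0.13 (SE; 95% interval 0.01 to 0.60; limma adjusted p = 0.992), and 0.20 without HO replicate 2. Psmc2 was next, at 12.04, 12.05 and 12.07 in WT, 12.17, 12.07 and 12.28 in HE, and 12.35, 12.41 and 12.15 in HO. It was the only member whose HE and HO arrays all exceeded the WT arrays (2.08% of all probe sets did so in either direction), but by 0.25 in HO at this probe set and by 0.0024 at the brighter one. Psmc5 was at 11.25, 11.27 and 11.11 in WT, 11.64, 11.37 and 11.59 in HE, and 11.04, 12.01 and 11.47 in HO. It is another ATPase, and HO held the highest and the lowest array.

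The 11 non-ATPase genes of the regulatory particle include the scaffold Psmd1 and Psmd2, the ubiquitin receptor Psmd4 and the deubiquitinase Psmd14. Of these 11, 6 were above 0 in HO and 5 in HE, with medians of 0.02 and -0.03. Psmd8, a lid subunit, was at 11.93, 11.77 and 11.77 in WT, 11.95, 11.70 and 11.66 in HE, and 12.00, 12.10 and 11.99 in HO. Its HO arrays exceeded all others, by 0.26 ± 0.13 over HE (SE; limma adjusted p = 1.0). Psmd13, another lid subunit, was at 10.37, 10.54 and 10.23 in WT, 10.20, 10.37 and 10.58 in HE, and 10.74, 10.55 and 10.58 in HO at its dimmer probe set. That is 0.24 ± 0.14 above WT in HO (limma adjusted p = 0.992), by a narrow margin between the nearest arrays, and the brighter probe set gave -0.02. At the brightest probe set of each gene the lowest HO difference was -0.10, for Psmd11, whose HO arrays lay just below its WT arrays, and the dimmer probe set of Psmd6 gave -0.14.

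Activators can replace the regulatory particle. Psme1, the interferon-inducible PA28 alpha, was at 13.33, 12.86 and 12.85 in WT, 13.04, 13.08 and 12.61 in HE, and 13.17, 13.08 and 12.93 in HO. The WT arrays again included the highest value, and the differences were 0.05 ± 0.17 (SE) in HO and -0.10 ± 0.17 in HE. Psme3, the nuclear PA28 gamma, was at 9.80, 9.93 and 9.95 in WT, 10.01, 9.13 and 9.72 in HE, and 9.75, 9.98 and 10.48 in HO. HO exceeded HE by 0.45 ± 0.23 (limma adjusted p = 1.0) with overlapping arrays, and HE minus WT was -0.27 at this probe set and 0.25 at the other tested one. Psme4, which encodes PA200, was at 0.10 in HO and 0.09 in HE, and Psmf1, the inhibitor PI31, at 0.11 and 0.0065.

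The 7 assembly chaperones, which build the rings and the base without staying in the finished particle, had medians of 0.04 in HO and -0.0063 in HE, with 4 and 3 above 0. Psmg3 lay below WT in HE on all 3 arrays, by 0.18. Psmg2 was the least certain of them: the correlation of its 2 probe sets over the 9 arrays was -0.88, and their HO differences were 0.11 and -0.07. Psme3ip1, a partner of PA28 gamma caught by the name rule, was at 10.99, 11.11 and 11.19 in WT, 10.69, 10.86 and 10.74 in HE, and 10.62, 10.94 and 11.04 in HO. Its HE arrays lay below WT by 0.33 ± 0.14 (SE; limma adjusted p = 1.0). Psmc3ip, a meiotic recombination factor, was at 0.21 in HO and 0.18 in HE.

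Without regard to p, the arrays did not overlap for 8 of 70 members in HO against WT (8.88% of all probe sets), with 6 of them higher (3.98% of all) and 2 lower in HO (4.9% of all). There were 8 in HE against WT (7.7% of all), with 5 higher (3.25% of all) and 3 lower (4.45% of all), and 5 in HO against HE (6.66% of all). The members that were higher made up 8.57% of the 70 in HO against WT and 7.14% in HE against WT, above the shares of all probe sets, and the lower ones 2.86% and 4.29%, at or below them; this difference in direction was not tested. The genes with several probe sets also limit what a single value can bear. Of 18 such genes, 7 had probe sets of 1 sign throughout in HO against WT and 7 in HE against WT. Their probe sets differed by a median of 0.18 in HO and 0.21 in HE. The extreme was Psmc4, an ATPase, where one probe set was at 8.75 in WT replicate 3 and the other at 10.94, so that HE minus WT was 0.89 and 0.07.

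Most proteasome genes spanned little from the lowest to the highest array, which is given as a description. Their median span was 0.438 on the log2 scale, and 28 of 45 spanned less than the median of all genes (0.566), 21 less than the lower quartile (0.430) and 5 more than the upper quartile (0.764). Psmd5, a base chaperone, spanned 0.18, which is less than all but 0.305% of genes. Psmd12, Psmd4 and Psmd11 of the regulatory particle spanned 0.22, 0.23 and 0.24. The 5 widest were Psme3 at 1.34, Psmb9 at 1.32, Psma5 at 1.07, Psmg2 at 0.995 and Psmc5 at 0.968. Brightness moved with this: among genes above the median signal of all genes the median span was 0.497, and it was 0.426 for the 35 proteasome genes there. The 3 constitutive catalytic subunits spanned 0.31 to 0.43, and the 3 immunoproteasome subunits 0.58 to 1.32.

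**Figure D3:**
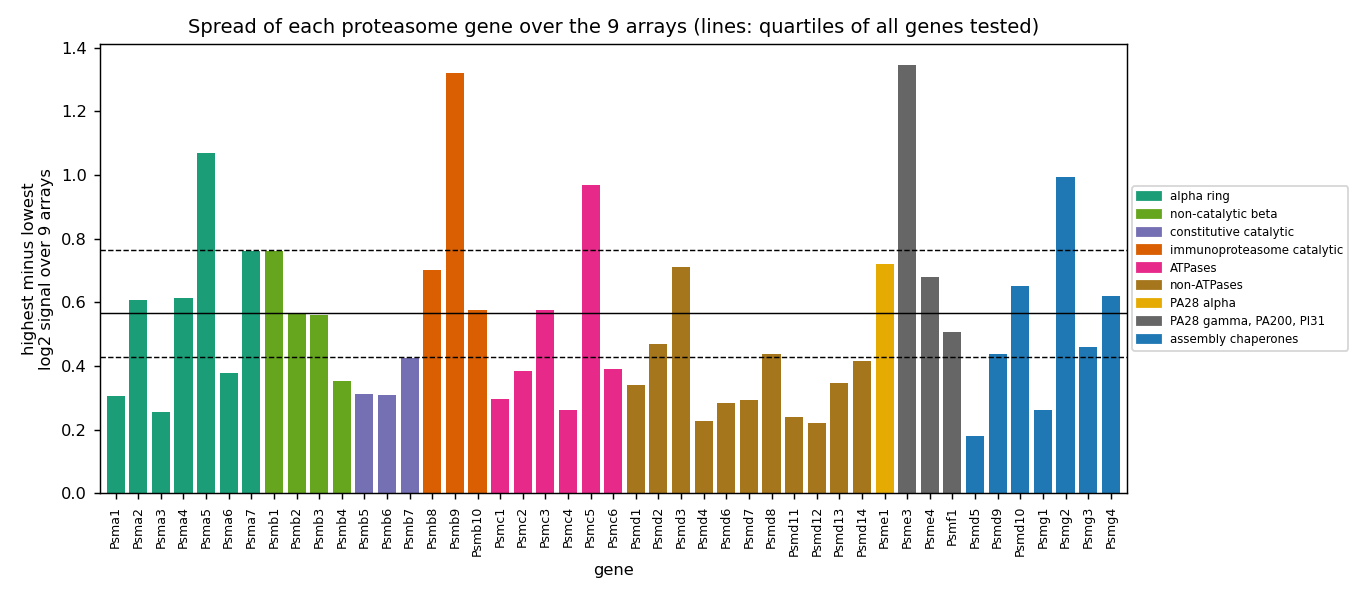
Highest minus lowest log2 signal over the 9 arrays (y axis) for each of the 45 tested proteasome genes (x axis, probe set of highest mean, coloured by role); the solid line is the median of all genes tested (0.566) and the dashed lines their quartiles (0.430 and 0.764). The constitutive catalytic subunits lie at or under the lower line, while Psmb9 at 1.32 and Psme3 at 1.34 rise far above the upper one.

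The replicate numbers of the titles go with 3 different prefixes of the source names, and each number holds 1 array of each genotype. What a number stands for is not stated in the labels. In a fit with genotype and number together, 0 of 70 members differed between numbers at an adjusted p under 0.05 (0.0147% of all probe sets) and 3 did at an unadjusted p under 0.05 (12% of all). Those 3 were Psma5, Psmb9 and Psmb3. The brighter Psma5 probe set was at 12.32, 11.76 and 11.85 in WT, 12.32, 11.48 and 12.06 in HE, and 12.43, 11.36 and 12.21 in HO, so number 1 was highest and number 2 lowest in every genotype (limma adjusted p = 0.286). Psmb9 had means of 11.71, 12.20 and 11.46 for numbers 1, 2 and 3 (limma adjusted p = 0.330). Psmb3 was at 11.77, 11.86 and 11.43 in WT, 11.89, 11.65 and 11.53 in HE, and 11.65, 11.82 and 11.33 in HO, lowest at number 3 throughout (limma adjusted p = 0.377).

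Number 2 was the highest of all 3 genotypes for 3 of 70 members (5.09% of all probe sets), and those 3 were Psmb8, Psmb9 and Psmb10, a count chosen after their values were seen. The other orders shared by all 3 genotypes were number 1 highest for 5 members (7.11% of all), number 3 highest for 0 (5.3% of all), number 1 lowest for 3 (7.25% of all), number 2 lowest for 4 (5.2% of all) and number 3 lowest for 8 (5.39% of all), which include Psmb10 and Psme1. Means for numbers 1, 2 and 3 were 12.09, 12.36 and 12.00 for Psmb8 and 12.08, 12.22 and 11.88 for Psmb10. Psme1 did not share this order, with means of 13.18, 13.01 and 12.80. The immunoproteasome against constitutive balance had number means of -0.13, 0.26 and -0.13. The dendritic cell and MHC class II marker list, of which 6 of 9 genes were tested, stood at medians of 0.03, 0.20 and -0.24 in WT, -0.05, 0.23 and -0.03 in HE, and 0.16, 0.30 and 0.06 in HO relative to the WT mean, so number 2 was highest in each genotype there as well. The dendritic cell genes Flt3, Xcr1 and Clec9a were not among the 6. H2-Ab1, H2-Eb1, Cd74 and Ccr7 were each highest at number 2 in every genotype. Cd209a was instead highest at number 3 in WT (10.01) and at number 1 in HO (10.04), and H2-Aa at number 1 in HO (14.46). The pan-leukocyte list had number means of -0.06, 0.12 and -0.03, but in HO its number 1 array (0.08) stood above number 2 (0.06). The interferon gamma and MHC class I list had number means of -0.0033, 0.12 and -0.19, but in WT its number 1 array (0.30) stood above number 2 (0.04). The macrophage and monocyte list did not share the order, with number means of 0.06, -0.00079 and -0.06. The part of these marker levels in the subunits' values was not tested. In lung tissue, fewer cells of a type and less RNA per cell cannot be told apart.

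**Figure D4:**
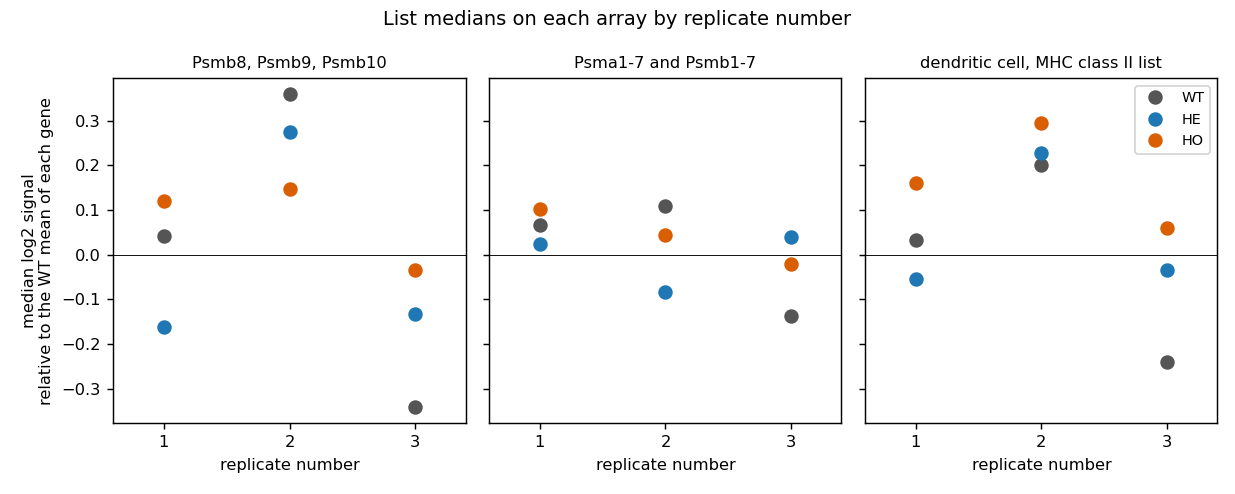
Median log2 signal of 3 gene lists relative to each gene's WT mean (y axis) on each array, by replicate number (x axis) and genotype (colour). For Psmb8, Psmb9 and Psmb10 (left) and for the dendritic cell and MHC class II list (right) number 2 is highest in all 3 genotypes, with number means of 0.26 and 0.24, which is not so for the 14 constitutive core genes (middle, 0.02).

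Across the arrays, Psmb9 and Psmb10, which lie on different chromosomes, varied together. Pearson's r was 0.878 (exact permutation p = 0.00215, two-sided, adjusted p = 0.0387 over 18 relations) and Spearman's rho was 0.917 (exact permutation p = 0.00131, adjusted p = 0.0236). Without HE replicate 2 and WT replicate 3, the arrays farthest from the Psmb9 median, r was 0.830, and with the replicate number means taken out it was 0.683. This was the only one of the 18 relations with an adjusted p under 0.05. Psmb8 and Psmb9, which are close neighbours, had r = 0.640 (exact permutation p = 0.0606, adjusted p = 0.136; rho = 0.767, exact permutation p = 0.0214, adjusted p = 0.0934), r = 0.648 without WT replicates 2 and 3, and 0.061 with number means taken out. Psmb8 and Psmb10 had r = 0.556 (exact permutation p = 0.119, adjusted p = 0.216; rho = 0.683, exact permutation p = 0.0503, adjusted p = 0.101), and -0.14 with number means taken out. For Psmb9 and its immediate neighbour Tap1, r was 0.741 (exact permutation p = 0.0206, adjusted p = 0.0926; rho = 0.767, exact permutation p = 0.0214, adjusted p = 0.0934), and 0.233 without HE replicate 2 and WT replicate 3, so that relation rested on those arrays. Psmb9 with Irf1, the interferon-induced transcription factor, had r = 0.763 (exact permutation p = 0.0175, adjusted p = 0.0926; rho = 0.850, exact permutation p = 0.00607, adjusted p = 0.0547), and 0.722 without the same arrays. Psmb8 with the pan-leukocyte median had r = 0.794 (exact permutation p = 0.0115, adjusted p = 0.0926; rho = 0.600, exact permutation p = 0.0968, adjusted p = 0.145), and 0.740 without WT replicates 2 and 3. With number means taken out, r was 0.653 for Psmb9 with Tap1, 0.690 for Psmb9 with Irf1 and 0.629 for Psmb8 with the pan-leukocyte median.

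Ranked by correlation with the mean of Psmb8, Psmb9 and Psmb10 over the 9 arrays, the 10 nearest of 8137 other genes were H2-Ab1, Eif5, Sptssa, Iah1, Gpank1, Cd74, H2-DMa, Dnttip1, Dmap1 and Tdp2, at r of 0.941 down to 0.866. These values are descriptions over 9 arrays, on which all genes share 1 RNA sample and 1 scaling per array. H2-Ab1 is a chain of MHC class II, Cd74 its invariant chain and H2-DMa part of its peptide loader. The array of highest H2-Ab1 signal was HE replicate 2 at 13.26 and the lowest WT replicate 3 at 12.60, as for Psmb9. With number means taken out, r was 0.836 for H2-Ab1, 0.659 for Cd74 and 0.248 for Tdp2. Other antigen presentation genes had r of 0.766 for H2-Aa, 0.715 for Ciita, 0.673 for Tap1, 0.562 for B2m, 0.531 for H2-K1 and 0.527 for Tapbp. The class I genes B2m and H2-K1 had higher r with the mean of the constitutive core, at 0.688 and 0.766. Pomp, the chaperone that assembles both kinds of core, had 0.230 with the immunoproteasome mean. The 99th percentile over all genes ranked was 0.763. Over the 91 gene pairs of the constitutive core the median r was 0.09, with pairs from -0.75 to 0.870, beside 0.64 for the 3 immunoproteasome pairs and 0.0039 over all gene pairs. With replicate number means taken out, a step added after seeing the data, the medians were 0.12 for the core and 0.061 for the immunoproteasome pairs, so the gap between them was present only with the number means left in. Nearest to the mean of its 14 genes were Krt18, Nudt9, Chchd10, Eef1a1 and Sftpc, at r of 0.948 to 0.926. Krt18 is an epithelial keratin and Eef1a1 a translation elongation factor, and both were lowest on WT replicate 3, as was Sftpc.

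Genes that act with the proteasome were taken from 4 lists, with 57 genes tested at the probe set of highest mean. Of 15 tested partners that bind or assemble it, 7 were above 0 in HO against WT and 6 in HE, with a median of -0.01 in both. Zfand2a, an arsenite-inducible proteasome-binding protein, was at 0.34 ± 0.14 (SE) in HO (limma adjusted p = 0.992). Ecpas, a scaffold that tethers core and cap, was at 0.47 ± 0.16 in HE (limma adjusted p = 1.0). Of the 16 genes in the ubiquitin, E1 and p97 list, 8 were tested, and no ubiquitin or E1 gene was among them. They were Vcp, Ufd1, Nploc4, Nsfl1c, Ngly1, Faf1, Ube4a and Ube4b. Of these 8, 4 were above 0 in HO and 3 in HE, and Ufd1, a p97 cofactor, was at 0.26 ± 0.12 in HE (limma adjusted p = 1.0). Of 9 regulators of proteasome genes, 5 were above 0 in HO and 7 in HE, among them Nfe2l1, the factor that raises proteasome genes when the proteasome is inhibited, at -0.04 and -0.07, and Nfe2l2 at 0.08 and 0.0045. Of 25 interferon gamma and MHC class I genes, 10 were above 0 in HO and 11 in HE, with medians of -0.04 and -0.02. This last list was the noisier, with a median SE of 0.21 against 0.14 for the proteasome genes, and it reached further: its lowest gene, the interferon-induced Ifit1, was at -0.65 ± 0.34 (SE) in HO and -0.69 ± 0.34 in HE. WT replicate 1 was its highest array, at 12.00, beside 10.63 and 10.35 in the other WT arrays. None of the 57 genes had an adjusted p under 0.05 with limma (0% of all probe sets) in either comparison with WT. At an unadjusted p under 0.05 there was 1 in HO against WT (4.49% of all probe sets) and 2 in HE against WT (3.11% of all), which are Zfand2a, Ecpas and Ufd1.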

How the data were processed

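The authors deposited a linear intensity for each probe set on each array, scaled so that the mean without the top and bottom 2% of values is 1500 throughout, as found from the values. The sources used here do not give how probes were summarised. Intensities were raised to a floor at their 5th percentile (25.5) and converted to log2. The 64 control probe sets were left out, as were those whose mean log2 fell below its 40th percentile (8.90), leaving 13576. The number of arrays limits the precision. Group means were fitted on all 9 arrays with limma 3.58.1 in R 4.3.3 (lmFit and eBayes), the replicate number with genotype as a covariate, and Benjamini-Hochberg adjustment ran over all 13576. Functions were tested on simulated data.

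In the platform annotation 20380 probe sets carry 1 symbol, 691 more than 1, and 1555 no symbol. The only probe set of Psme2 carries 2, so relations planned with it were not computed. Promoters and neighbours come from RefSeq, GRCm38.p6; Psmb7 had no promoter entry.

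The members and lists were chosen with earlier results of these data known. Named with all 9 values by rule are the catalytic subunits, Psme1, the 3 members of lowest p in each comparison and for the replicate number, and members below the filter; Psma2 and Psmc5, and other genes given with fewer values, were added after their values were seen. List genes are named at an unadjusted p under 0.05; others illustrate a list.

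Same-numbered arrays deviated together for HO and WT (correlations of 0.19, 0.14 and 0.28 over probe sets), which by the fixed criterion pairs them, but not for HE and WT (0.30, 0.05 and 0.04) or HO and HE (0.16, 0.15 and 0.03). The SEs, intervals and p-values given for HO against WT came from the fit without this pairing, which entered only as an alternative. Alternatives were quantile normalization, median centring, other floors and filters, the replicate block, a trended and robust fit, array weights, 1 probe set per gene, a fit restricted to the groups compared, HO replicate 2 counted as HE, and each array left out in turn.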

Additional observations from a re-analysis of the deposited data

How the results depend on the processing

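Each of the 4 genotype comparisons was recomputed under 21 alternatives, 9 of which leave out 1 array. The count of member probe sets at an adjusted p under 0.05 was 0 in every one, and the lowest adjusted p of any named member was 0.654. The median over proteasome genes ranged from 0.03 to 0.10 in HO against WT and from -0.04 to 0.04 in HE against WT, where its sign is not fixed. Counts at an unadjusted p are unstable: they ran from 0 to 3 in HO against WT and from 1 to 4 in HE against WT, and 44 of 104 moved by over 1.5 times. With the replicate number as a block, 0 members passed after adjustment in any comparison, and 1, 2 and 1 did before it in HO against WT, HE against WT and HO against HE, as without it; both transgenic groups against WT had 3 in place of 1. For the replicate number itself, the count at an unadjusted p was 6 with genotype left out. With HO replicate 2 counted as HE, the proteasome median was 0.04 in HO against WT and 0.01 in HO against HE. With that array kept as HO these medians were 0.05 and 0.066. Of 832 values of single genes, 47 had the other sign under an alternative. The cause of these shifts was not tested.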
